A study of Mus musculus with 6 samples.

Results

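The 10 genes described here are 6 gasdermins (Gsdmc, Gsdmc2, Gsdmc3, Gsdmc4, Gsdmd and Gsdme) and 4 inflammasome genes (Nlrp6, Pycard, Casp1 and Casp4), taken by gene name from the 55849 genes of the deposited tables, and all 10 were found. Gasdermins are proteins that, once cut by a protease, insert into membranes and form pores. Inflammasomes are the complexes that start this cut: a sensor such as Nlrp6 recruits the adaptor Pycard (ASC), which gathers caspase-1, and caspase-1 cuts gasdermin D and the precursors of the cytokines interleukin-1 beta and interleukin-18. Caspase-11, the product of Casp4 in mice, senses bacterial lipopolysaccharide in the cytosol and also cuts gasdermin D. In the colon, Nlrp6 and the Gsdmc genes are known as epithelial genes.

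RNA of the descending colon was sequenced in 6 libraries of mice aged 12 weeks, 3 from wild-type C57BL/6 and 3 from Muc2-/- mice, with no treatment in either group. Muc2 encodes the gel-forming mucin of colonic mucus, and its loss in mice gives a widely used colitis model. Crypts are named in the titles, colon tissue in the protocols, and the labels name neither the part of Muc2 that is missing nor the number of animals behind a library. P-values therefore measure the spread between these libraries, which may be technical.

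Total counts ran from 16395432 to 20336459 per library, and values are given as CPM, counts scaled by library total and composition so that libraries can be compared. Muc2 had 2480, 6977 and 2629 CPM in wild-type 1, 2 and 3, against 757, 1021 and 942 CPM in Muc2-/- 1, 2 and 3. It was lower in every Muc2-/- library but far from absent (log2 fold change -2.15, adjusted p = 0.103 in edgeR and 3.17e-05 in DESeq2). Marker sums of several cell types differed between the groups as well. The 8 smooth muscle markers, all detected, summed to 19600, 11358 and 5529 CPM in wild-type 1, 2 and 3 and to 2373 to 4259 CPM in Muc2-/-. Muscle RNA is therefore present in libraries titled as crypts. The 12 epithelial markers, all detected, summed to 12638, 19851 and 24428 CPM in wild-type 1, 2 and 3 and to 29851 to 45715 CPM in Muc2-/-, with no overlap. Wild-type 1 held the most muscle and the least epithelial marker RNA of all libraries. The 12 monocyte and macrophage markers, all detected, summed to 78.3 to 151 CPM and to 174 to 246 CPM. The 8 neutrophil markers summed to 77.3 to 232 CPM and to 405 to 785 CPM, most of it Ly6g (75.8 to 231 CPM and 396 to 611 CPM), and S100a9, Cxcr2, Mmp8 and Retnlg were at 0 counts in all wild-type libraries. In wild-type the sum therefore rests mainly on Ly6g, and whether Ly6g stands for neutrophils here was not tested. In bulk tissue, fewer cells of a type and less RNA per cell cannot be told apart.

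The comparison of Muc2-/- with wild-type asks whether colitis in this model goes with other levels of pore-forming and inflammasome transcripts. Gsdmd had 2.17 times and Pycard 2.07 times the wild-type CPM in Muc2-/-, Casp1, Nlrp6, Gsdmc4 and Gsdme had smaller positive differences within the spread of the libraries, and Gsdmc2, Gsdmc3 and Casp4 had small negative ones. Of the 10 genes 9 had enough counts to be tested, and none passed an adjusted p of 0.05 in edgeR's quasi-likelihood test (0 higher and 0 lower; 0.106% of all 16107 tested genes were called higher and 0.0186% lower). At an unadjusted p under 0.05 there were 2 higher and 0 lower (8.23% of all tested genes were higher and 12.7% lower at that threshold), and DESeq2 called 1 higher, Gsdmd, and 0 lower (3.35% of its tested genes were called higher and 6.8% lower). Gsdmd and Pycard were also the 2 genes whose libraries did not overlap between the groups, both higher in Muc2-/-, and none was lower throughout (13.3% and 15.2% of all tested genes). The median log2 fold change of the 9 was 0.36, against -0.01 over all tested genes.

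**Figure D1:**
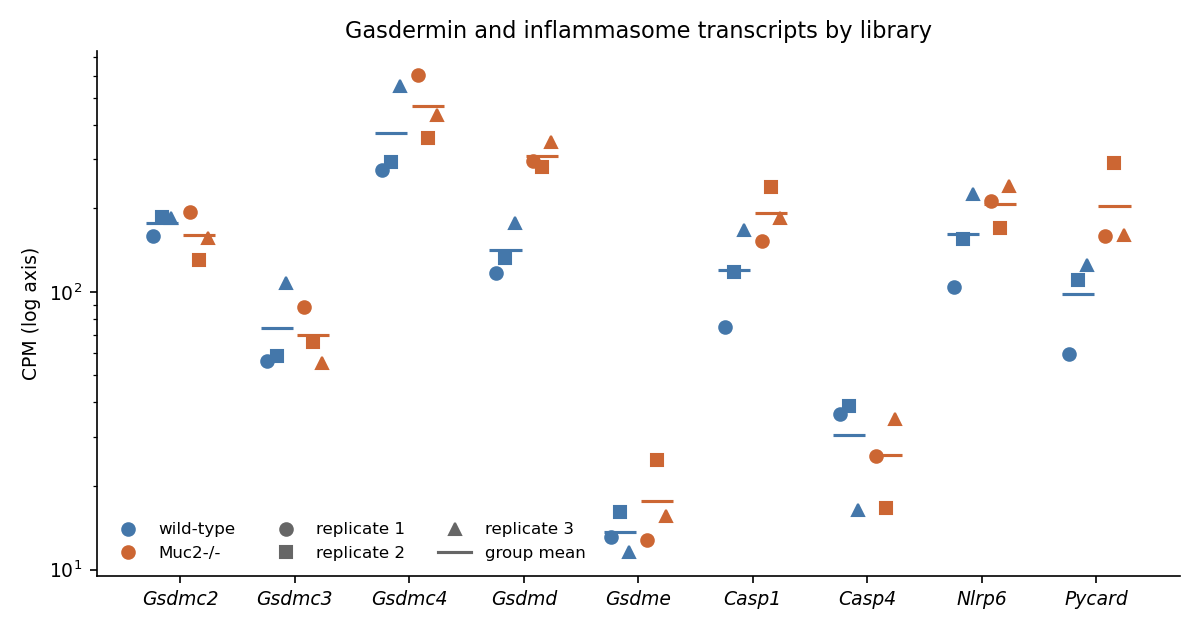
CPM of the 9 tested genes in each library, on a log axis. Blue is wild-type and orange Muc2-/-, symbols give the replicate number and bars the group mean (n = 3 each). The groups separate for Gsdmd and Pycard and overlap for the other 7 genes.

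Among the pore formers, Gsdmd encodes the gasdermin cut by caspase-1 and caspase-11. It lies on chromosome 15 from 75734176 to 75739257, plus strand, in the coordinates of the count table. Wild-type 1, 2 and 3 held 117, 132 and 177 CPM of it, against 296, 282 and 347 CPM in Muc2-/- 1, 2 and 3. Every Muc2-/- library was above every wild-type library, and wild-type 3 was the nearest to them. Mean CPM was 142 ± 30.8 in wild-type and 308 ± 34.5 in Muc2-/- (SD, n = 3 each, as for all means here), a 2.17-fold difference. The log2 fold change was 1.12 (SE 0.23, unadjusted 95% interval 0.60 to 1.64), and its adjusted p of 0.101 in edgeR's quasi-likelihood test did not pass. The call depended on the setting: DESeq2 gave an adjusted p of 0.00117, edgeR without a filter on low counts 0.0218 (where 1.43% of all genes were called higher), and edgeR without wild-type 3 gave 0.0257 (where 1.62% of all tested genes were called higher). With a block for the replicate number edgeR gave an adjusted p of 0.0376 (where 1.4% of all tested genes were called higher). Whether these numbers pair the samples is not known. Over the alternatives with all 6 libraries the adjusted p ran from 0.00117 to 0.234, and with single libraries left out from 0.0257 to 0.289. The log2 fold change stayed between 0.94 and 1.31 in all of them.

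The Gsdmc genes encode a second branch of the family, abundant in colonic epithelium, and are close copies of each other. They lie side by side on the minus strand of chromosome 15: Gsdmc from 63647817 to 63680608, Gsdmc2 from 63696195 to 63717026, Gsdmc3 from 63729573 to 63750407 and Gsdmc4 from 63763113 to 63784146. In GENCODE M21 transcripts (GRCm38, read on the coding strand) the coding sequences of Gsdmc2 and Gsdmc3 were identical at 97.1% of 1443 aligned bases, and Gsdmc4 shared 93.5% with each of them. Gsdmc was further away, at 85.9% to 87.0% identity with the other copies, and Gsdmd shared 45.8% to 46.3% with the Gsdmc genes. The copies are hard or easy to tell apart depending on where a read falls, as 2 stretches of 90 bases show. The first 90 coding bases differ at 2 positions, in capitals here.
Gsdmc2: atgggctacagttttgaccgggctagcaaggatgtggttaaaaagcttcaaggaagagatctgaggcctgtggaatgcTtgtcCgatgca
Gsdmc3: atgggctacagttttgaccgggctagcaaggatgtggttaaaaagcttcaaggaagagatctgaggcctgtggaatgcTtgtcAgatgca
Gsdmc4: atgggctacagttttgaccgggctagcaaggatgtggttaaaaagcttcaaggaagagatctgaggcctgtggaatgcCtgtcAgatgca

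In the stretch of 90 bases without gaps where the copies differ most, 22 positions differ, again in capitals. It runs from coding base 778 to 867 in Gsdmc2 and Gsdmc3 and from 784 to 873 in Gsdmc4.
Gsdmc2: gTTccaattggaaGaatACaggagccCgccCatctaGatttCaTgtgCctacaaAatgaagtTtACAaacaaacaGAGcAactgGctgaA
Gsdmc3: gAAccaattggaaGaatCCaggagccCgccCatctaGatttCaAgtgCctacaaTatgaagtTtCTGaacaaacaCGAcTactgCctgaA
Gsdmc4: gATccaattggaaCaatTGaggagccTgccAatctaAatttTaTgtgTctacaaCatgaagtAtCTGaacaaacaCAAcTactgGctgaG

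Of all stretches of 100 bases in the longest-coding transcript, 71.4% in Gsdmc2, 69.5% in Gsdmc3, 79.8% in Gsdmc4 and 92.7% in Gsdmc occurred in no transcript of another gene. At 50 bases the shares were 51.5%, 53.1%, 61.0% and 83.6%. The read length and the treatment of reads that match several copies are not given in the sources used here. The values of single copies are therefore uncertain, and the sum of the 4 copies was tested beside them.

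Gsdmc4 was the most abundant copy, with 276, 294 and 551 CPM in wild-type 1, 2 and 3 and 606, 359 and 435 CPM in Muc2-/- 1, 2 and 3. Wild-type 3 and Muc2-/- 1 were the highest libraries and the groups overlapped. The means were 374 ± 154 CPM and 467 ± 127 CPM (log2 fold change 0.32, SE 0.34, edgeR adjusted p = 0.627). Gsdmc2 had 159, 186 and 185 CPM in wild-type and 195, 131 and 156 CPM in Muc2-/-, the narrowest spread of the 3 abundant copies in wild-type. Its highest and its lowest values were both in Muc2-/- (log2 fold change -0.14, SE 0.21, edgeR adjusted p = 0.741). Gsdmc3 had 56.6, 59.0 and 108 CPM in wild-type and 88.5, 65.9 and 55.4 CPM in Muc2-/- (log2 fold change -0.09, SE 0.30, edgeR adjusted p = 0.894). As for Gsdmc4, wild-type 3 and Muc2-/- 1 were the highest libraries. Gsdmc itself had 0, 2 and 1 counts in wild-type, against 0, 0 and 1 in Muc2-/-, too few to be tested or to give a fold.

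Summed over the copies, the family reached 492, 539 and 844 CPM in wild-type 1, 2 and 3, against 889, 555 and 646 CPM in Muc2-/- 1, 2 and 3. The groups overlapped, with 625 ± 191 CPM and 697 ± 172 CPM. The log2 fold change was 0.16 (SE 0.30, edgeR adjusted p = 0.810), with an unadjusted 95% interval from -0.55 to 0.86 that holds changes of either sign. Its sign turned without composition factors (-0.01) and without Muc2-/- 1 (-0.05).

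Gsdmc4 made up 56.1%, 54.5% and 65.3% of the family counts in wild-type 1, 2 and 3, against 68.2%, 64.6% and 67.3% in Muc2-/- 1, 2 and 3. Gsdmc2 made up 32.4%, 34.5% and 21.9% in wild-type, against 21.9%, 23.5% and 24.2% in Muc2-/-. Wild-type 3 had a make-up like that of the Muc2-/- libraries, so the groups overlapped. The mean share of Gsdmc4 was 58.6% ± 5.84 and 66.7% ± 1.84 (exact permutation test, two-sided p = 0.2, 0.3 after Benjamini-Hochberg adjustment over 3 copies; the smallest possible p is 0.1). Gsdmc3 made up from 8.57% to 12.7% (exact two-sided p = 0.3). The unprocessed pseudogene Gsdmcl2, which lies between Gsdmc3 and Gsdmc4 on the plus strand, had 60.6 ± 22.0 CPM and 61.5 ± 35.8 CPM (named after its values were seen), with its lowest value, 21.8 CPM, in Muc2-/- 2.

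**Figure D2:**
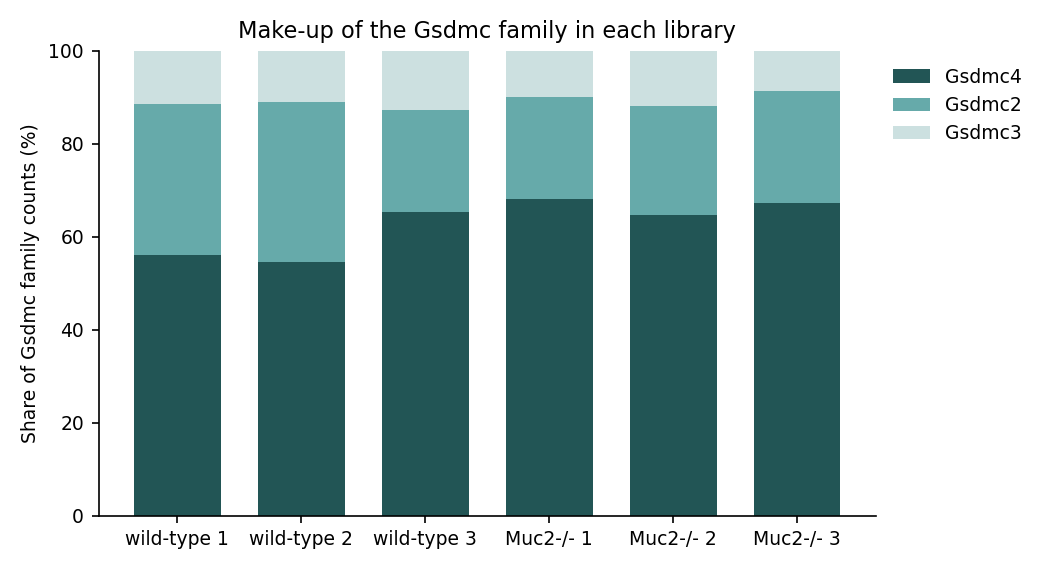
Share of the counts of Gsdmc2, Gsdmc3 and Gsdmc4 in the sum of the Gsdmc family in each library (Gsdmc, with at most 2 counts in a library, is too small to see). The Gsdmc4 share lies at 54.5% and 56.1% in wild-type 2 and 1 and between 64.6% and 68.2% in the other 4 libraries.

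Gsdme encodes a gasdermin that is cut by caspase-3, an enzyme of apoptosis. It lies on chromosome 6 from 50165868 to 50240842, minus strand, and its span overlaps that of the oppositely oriented gene Pals2. Without a stated strand setting, reads from the shared stretch cannot be assigned with certainty, and the extent of that stretch was not measured. It had 13.1, 16.1 and 11.6 CPM in wild-type and 12.7, 24.8 and 15.6 CPM in Muc2-/-, with Muc2-/- 2 alone above the wild-type range (log2 fold change 0.38, SE 0.30, edgeR adjusted p = 0.506).

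Of the inflammasome genes, Nlrp6, a sensor on chromosome 7 from 140500815 to 140509105, had 104, 155 and 225 CPM in wild-type 1, 2 and 3 and 212, 170 and 241 CPM in Muc2-/- 1, 2 and 3. Wild-type 1 was the lowest library, as for Gsdmd, Pycard, Casp1, Gsdmc4 and the Gsdmc sum, and the rest overlapped. Whether the high muscle and low epithelial marker RNA of wild-type 1 bears on this was not tested. The means were 161 ± 60.5 CPM and 208 ± 35.6 CPM (log2 fold change 0.36, SE 0.30, edgeR adjusted p = 0.525).

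Pycard, the adaptor that links sensors to caspase-1, lies on chromosome 7 from 127588880 to 127593039. It had 59.7, 111 and 125 CPM in wild-type and 159, 291 and 160 CPM in Muc2-/-. The groups did not overlap, although Muc2-/- 2 stood far above the other 2 Muc2-/- libraries. The means were 98.4 ± 34.3 CPM and 203 ± 75.7 CPM, a 2.07-fold difference. The log2 fold change was 1.05 (SE 0.35, unadjusted 95% interval 0.23 to 1.86, edgeR adjusted p = 0.155), and DESeq2 gave an adjusted p of 0.0520. Without Muc2-/- 2 the log2 fold change was 0.72, and with wild-type 1 left out as well, a choice made after seeing the data, it was 0.44 (edgeR adjusted p 0.261 and 0.212). Over all alternatives the adjusted p ran from 0.0520 to 0.388.

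Casp1 and Casp4 encode the inflammatory caspases and are neighbours on the plus strand of chromosome 9, Casp1 from 5298508 to 5307290 and Casp4 from 5308828 to 5336783. Casp1 had 74.7, 118 and 167 CPM in wild-type 1, 2 and 3 and 153, 239 and 185 CPM in Muc2-/- 1, 2 and 3. Only wild-type 3 reached into the Muc2-/- range (log2 fold change 0.68, SE 0.32, edgeR adjusted p = 0.268). The log2 fold change was 1.01 without wild-type 3, 0.43 without wild-type 1 and 0.24 without both wild-type 1 and Muc2-/- 2 (edgeR adjusted p 0.0994, 0.581 and 0.593). Casp4 did not follow its neighbour from library to library. It had 36.3, 38.7 and 16.5 CPM in wild-type and 25.7, 16.7 and 35.0 CPM in Muc2-/-, so that wild-type 3, the highest wild-type library for Casp1, was the lowest of all for Casp4 (log2 fold change -0.24, SE 0.38, edgeR adjusted p = 0.760). Without Muc2-/- 2 its log2 fold change was 0.024, the sign turned.

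RefSeq promoter sequences (GRCm38.p6, 250 bases before to 50 after a gene start) were on hand for 6 of the 10 genes: Gsdmc3, Gsdme, Casp1, Casp4, Nlrp6 and Pycard. Gsdmc, Gsdmc2, Gsdmc4 and Gsdmd had no entry. The promoters of the neighbouring caspase genes are shown because these genes differed in pattern. They were searched on both strands for GGG and TTCCC set 2 bases apart (a form of the NF-kappaB site, chosen after the sequences were seen), for TTC and GAA set 3 bases apart (the STAT site of interferon gamma) or 4 bases apart (the spacing of STAT6), and for GAAA and GAAA set 2 bases apart (the interferon-stimulated element). No match shared bases with another motif, and capitals mark matches. Casp1 is at chr9:5298267-5298566 and Casp4, at the first of 2 listed starts, at chr9:5308599-5308898, both on the plus strand.
Casp1: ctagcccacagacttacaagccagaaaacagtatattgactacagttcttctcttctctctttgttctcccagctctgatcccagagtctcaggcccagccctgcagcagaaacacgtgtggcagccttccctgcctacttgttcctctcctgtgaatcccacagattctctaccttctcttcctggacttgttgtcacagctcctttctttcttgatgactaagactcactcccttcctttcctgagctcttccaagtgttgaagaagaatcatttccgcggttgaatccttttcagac
Casp4: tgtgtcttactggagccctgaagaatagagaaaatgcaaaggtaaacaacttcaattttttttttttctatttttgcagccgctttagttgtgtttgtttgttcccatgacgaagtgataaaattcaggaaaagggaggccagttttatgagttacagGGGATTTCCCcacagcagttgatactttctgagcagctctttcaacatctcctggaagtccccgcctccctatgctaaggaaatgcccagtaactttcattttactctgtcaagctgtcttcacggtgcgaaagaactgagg

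Casp4 held 1 match to the NF-kappaB form, and the other 5 genes with an entry held none. The form was found in 1.75% of the 32851 listed promoters. It was chosen after the sequences were seen, so the match is a description and this share does not measure how unusual it is. Other forms of the NF-kappaB site were not searched. No promoter of the 6 genes held the other 3 motifs, which were found in 8.30% (STAT), 6.95% (STAT6) and 3.44% (interferon-stimulated element) of all listed promoters.

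Levels of different genes were compared per length with the deposited FPKM. In wild-type, Gsdmc4 was highest at 178 ± 78.3 FPKM, above the range of every other member. Gsdmc2 (75.7 ± 7.87 FPKM), Gsdmd (59.4 ± 14.4), Casp1 (38.1 ± 15.6), Gsdmc3 (31.8 ± 13.1), Nlrp6 (31.6 ± 12.6) and Pycard (25.8 ± 9.44) followed, each overlapping the next. Casp4 (8.09 ± 3.12 FPKM), Gsdme (1.06 ± 0.167) and Gsdmc (0.0209 ± 0.0213) lay apart below them. In Muc2-/-, Gsdmd took the second place at 130 ± 14.1 FPKM, apart from Gsdmc4 above it (224 ± 58.1) and from Gsdmc2 below it (69.5 ± 13.1). Pycard (54.0 ± 20.8 FPKM) overlapped Casp1 (61.7 ± 14.8) and Nlrp6 (41.0 ± 6.72). The listed length of Gsdme, 12742 bases, was the longest of the 10 and lowers its FPKM.

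Since the epithelial markers were higher in Muc2-/- by 0.75 in mean log2 CPM (two-sided exact permutation p = 0.1, the lowest that 3 against 3 libraries allow), each gene was also set against their mean in the same library. A second epithelial list, of 10 surface colonocyte markers, had nearly the same mean log2 CPM in both groups (8.28 in wild-type and 8.29 in Muc2-/-, two-sided exact permutation p = 1), with 5 of 10 positive, and the 8 tuft cell markers had a median log2 fold change of -1.52. The values that follow therefore hold for the first list, and no gene was set against the other lists. Relative to these markers the difference of Gsdmd was 0.38 on the log2 scale, from -2.53, -2.96 and -2.59 in wild-type to -2.12, -2.82 and -2.00 in Muc2-/-, and the groups overlapped. It went down to 0.22 without Muc2-/- 3 and 0.25 without wild-type 2 and up to 0.63 without Muc2-/- 2. Against Epcam alone the Gsdmd difference was 0.51 (two-sided exact permutation p = 0.2, not adjusted). For Pycard the difference from the 12 markers was 0.30, also with overlap (0.18 without wild-type 1). Set against Epcam alone, Pycard differed by 0.44 with no overlap (two-sided exact permutation p = 0.1, not adjusted). For Casp1 the difference was -0.02, with a sign that turned with the marker set (0.11 against Epcam alone). Gsdmc2 was lower on this scale in every Muc2-/- library, at -2.09, -2.46 and -2.52 in wild-type and -2.72, -3.93 and -3.15 in Muc2-/-, a difference of -0.91 (two-sided exact permutation p = 0.1, again the lowest allowed, 0.45 after Benjamini-Hochberg adjustment over 9 genes). Without Muc2-/- 2 that difference was -0.58. For Gsdmc3 the difference was -0.80, for Gsdmc4 -0.39, for Nlrp6 -0.34, for Casp4 -0.96 and for Gsdme -0.42, each with overlapping groups and an exact p of 0.2 or more. On deposited FPKM, as log2(FPKM + 1), the Gsdme difference was -0.57 with no overlap (two-sided exact permutation p = 0.1, not adjusted). The added 1 is close to the level of Gsdme itself, 1.06 FPKM in wild-type and 1.40 in Muc2-/-. In limma the log2 fold change of Gsdme alone was 0.21 with 1 added and 0.33 with 0.1 added. The ratio to the markers was not taken with 0.1 added. The parts of epithelial, muscle, macrophage and neutrophil RNA in the differences of Gsdmd, Pycard and the pathway genes below were not tested.

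**Figure D3:**
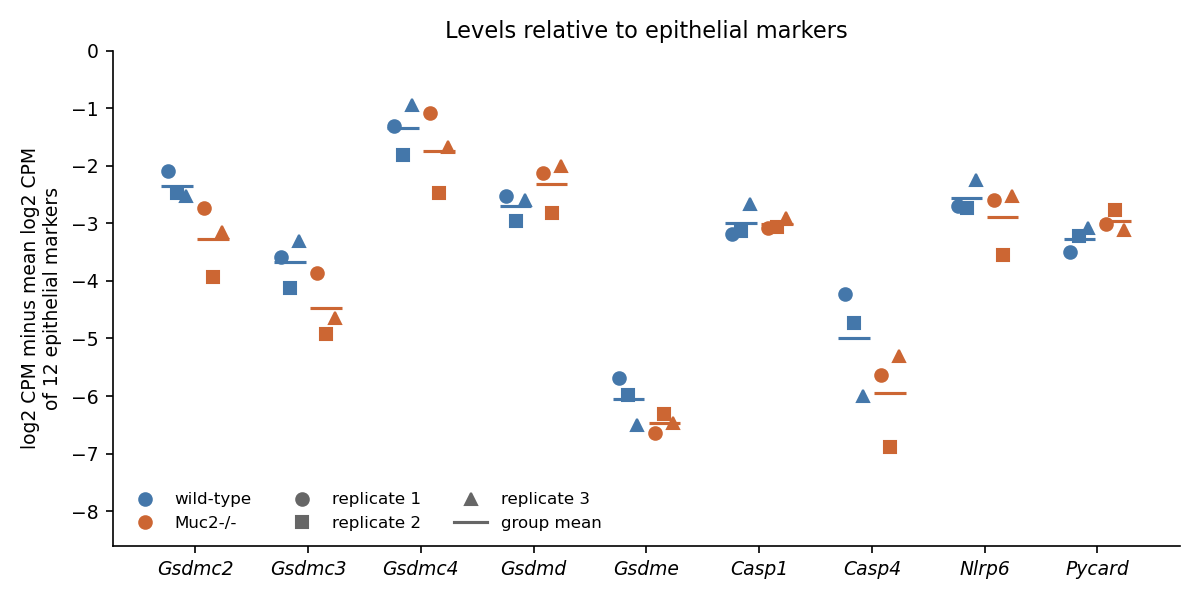
log2 CPM of each tested gene minus the mean log2 CPM of 12 epithelial markers in the same library. Blue is wild-type and orange Muc2-/-, symbols give the replicate number and bars the group mean (n = 3 each). Of the 9 genes Gsdmc2 alone separates the groups on this CPM scale against these 12 markers, lower in Muc2-/-.

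Genes around these in the pathway were described by lists of roles. Over the 8 lists, with the 10 genes left out, 64 genes were tested. The lists were chosen with earlier results of these data known, so their counts are a description. edgeR called 0 higher and 0 lower (0.106% and 0.0186% of all tested genes). At an unadjusted p under 0.05, 23 were higher and 1 lower (8.23% and 12.7% of all tested genes). DESeq2 called 17 of 68 higher and 0 lower (3.35% and 6.8% of all its tested genes). The groups did not overlap for 28 higher genes and 2 lower ones (13.3% and 15.2% of all tested genes), and the median log2 fold change was 0.53. Of the 64 genes 50 had a positive log2 fold change, as had 7909 of all 16107 tested genes.

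All 11 tested sensors, Nlrp6 among them, had a positive log2 fold change (median 0.57), as had 7909 of all 16107 tested genes. Naip1, a receptor for bacterial secretion-system proteins, had 121, 166 and 188 CPM in wild-type and 277, 294 and 315 CPM in Muc2-/- (log2 fold change 0.90, SE 0.22, edgeR adjusted p = 0.103, DESeq2 0.0114), with no overlap. Naip2, of the same family, had 56.6 ± 23.5 CPM and 75.0 ± 29.4 CPM (0.41, edgeR adjusted p = 0.582). DESeq2 also called Naip5 (0.78) and Nlrp9b (0.76), named after their values were seen. The Naip genes are near copies, so their values are uncertain. Nlrp3, a sensor of myeloid cells also named after its values were seen, had 9, 1 and 2 counts in wild-type, against 11, 6 and 23 in Muc2-/- (DESeq2 adjusted p = 0.276, filtered out of the edgeR test).

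Of 10 adaptors and caspases, 6 had a positive log2 fold change (median 0.39), as had 7909 of all 16107 tested genes. DESeq2 called none of the 10 (3.35% of all its tested genes were called higher and 6.8% lower). Casp8, the caspase of death receptors, had 85.4 ± 9.83 CPM and 142 ± 43.2 CPM with no overlap (log2 fold change 0.73, edgeR adjusted p = 0.161). In the gasdermin family list Gsdma, the skin gasdermin, was at 1.09 ± 0.671 CPM and 1.47 ± 0.505 CPM, and Gsdma2 and Gsdma3 were at 0 counts in every library.

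Of 9 tested genes of the interleukin-1 and interleukin-18 pathways 7 had a positive log2 fold change (7909 of all 16107 tested genes had one). DESeq2 called 3 higher and 0 lower (3.35% and 6.8% of all its tested genes). Il18, the epithelial precursor cut by caspase-1, had 17.2, 23.3 and 55.6 CPM in wild-type and 60.0, 56.6 and 60.3 CPM in Muc2-/-. Wild-type 3 stood close to the Muc2-/- libraries, and the log2 fold change was 0.88 (SE 0.40, edgeR adjusted p = 0.261). Il1rn, the receptor antagonist, had 53.6 ± 23.4 CPM and 132 ± 10.8 CPM with no overlap (edgeR adjusted p = 0.103, DESeq2 0.00582). Il1b and Il18bp, the soluble inhibitor of interleukin-18, were named after their values were seen. Il1b had 9, 7 and 3 counts in wild-type, against 70, 156 and 154 in Muc2-/- (log2 fold change 4.56, SE 0.61, edgeR adjusted p = 0.0544, DESeq2 1.09e-11), and Il18bp had 5.38 ± 1.82 CPM and 27.7 ± 11.7 CPM (2.36, edgeR adjusted p = 0.0899, DESeq2 5.87e-06).

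Among modulators, Serpinb1a, an inhibitor of inflammatory proteases, had 408 ± 170 CPM and 916 ± 70.7 CPM with no overlap (log2 fold change 1.17, edgeR adjusted p = 0.113, DESeq2 0.00910), while Txnip, a thioredoxin-binding protein, had 756 ± 165 CPM and 815 ± 281 CPM (0.11). Of the regulators, Irf1, an interferon-induced transcription factor, had 141 ± 27.5 CPM and 292 ± 74.4 CPM (1.05, edgeR adjusted p = 0.103, DESeq2 0.00928), and Ifngr1, a chain of the interferon gamma receptor, 273 ± 60.9 CPM and 251 ± 110 CPM (-0.12).

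Signals of type 2 immunity are known to induce Gsdmc genes in the intestine. Of 12 listed genes of this arm 7 were tested (median log2 fold change 0.10), and Il5 and Il13 were at 0 counts in every library. DESeq2 called 2 genes of this list higher and 0 lower (3.35% and 6.8% of all its tested genes), Il13ra1 and Il4ra, the latter named after its call was seen. Il13ra1, a receptor chain for interleukin-13, had 113 ± 14.7 CPM and 177 ± 12.1 CPM (0.65, edgeR adjusted p = 0.118, DESeq2 0.0492). Retnlb, a goblet cell product, ran from 2.62 CPM in wild-type 3 to 1482 CPM in Muc2-/- 2, and the groups overlapped. The 4 necroptosis genes, which form another pore-forming death pathway, all had positive values (median 1.37), as had 7909 of all 16107 tested genes. DESeq2 called 3 of them higher and 0 lower (3.35% and 6.8% of all its tested genes). These were Zbp1, Ripk3 and Mlkl, with Ripk3 and Mlkl named after their calls were seen. Zbp1, a nucleic acid sensor, had 30.0 ± 15.6 CPM and 85.7 ± 30.8 CPM (1.51, edgeR adjusted p = 0.107, DESeq2 0.00688), and Ripk1, a kinase, 41.5 ± 10.7 CPM and 50.1 ± 2.64 CPM (0.27).

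**Figure D4:**
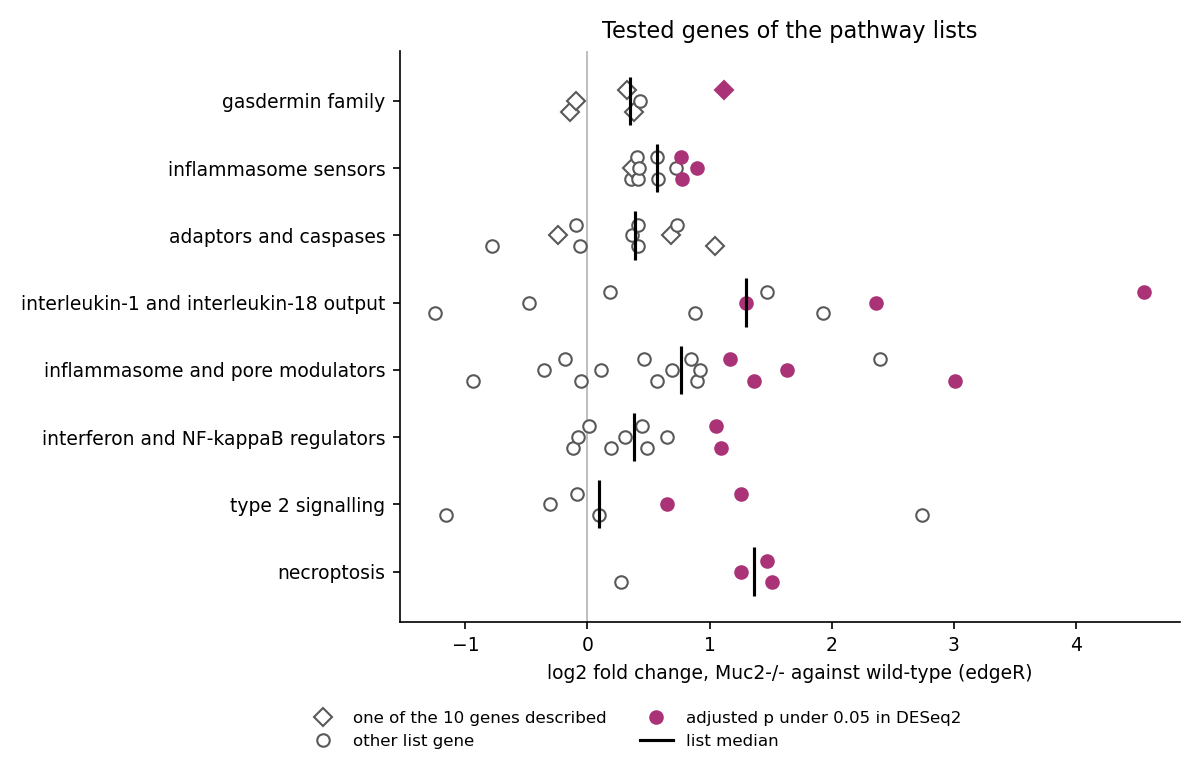
log2 fold change of Muc2-/- against wild-type from edgeR for each tested gene of the 8 pathway lists. Diamonds are the genes described above and circles the other list genes. Filled symbols passed an adjusted p of 0.05 in DESeq2, none passed in edgeR, and the vertical bars are list medians, from 0.10 for type 2 signalling to 1.37 for necroptosis.

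The genes nearest in pattern were ranked by the root mean square distance of centred log2 CPM over the 6 libraries, among 10913 to 10915 protein-coding genes with a mean of 5 CPM or more, as a description with no test. Nearest to the summed Gsdmc family were Serinc5 (distance 0.0390), Cdc42se2 (0.0576) and Fasn (0.0973), where the median gene lay at 0.452. Nearest to Nlrp6 were Tspan15 (0.0517), Arhgef16 (0.0790) and Cgn (0.0868), where the median was 0.499. Nearest to Gsdmd were H2-D1 (0.0549), Gna14 (0.0871) and Apaf1 (0.113), where the median was 0.644. The 6 libraries differ in tissue make-up, as the marker sums above show, and this can enter these distances. Its part was not tested.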

How the data were processed

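RNA of descending colon from 3 wild-type and 3 Muc2-/- libraries was selected for polyadenylation and sequenced in pairs, per the labels' protocols. The authors deposited counts per gene (whole numbers, not normalized) and FPKM. The submitters' processing notes list mm10, DESeq2 1.20.0, featureCounts 1.5.0-p3, HISAT2 2.0.5 and StringTie 1.3.3b and state no role for any. The deposited FPKM equalled counts per listed gene length and per library total times a factor of 0.860 to 1.14. GENCODE M21 held 52081 of the identifiers, 51497 with equal width but 1494 with equal start and end, so coordinates are printed as deposited and belong to another assembly than GRCm38. No strand setting is given in the sources used.

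Tests on counts used edgeR 4.0.16 (R 4.3.3): TMM, the default filter (minimum count 10, total 15), a quasi-likelihood fit with genotype alone on all 6 libraries, and Benjamini-Hochberg adjustment at 0.05 over 16107 genes. Intervals of 95% use the SE of this fit. A prior count of 2 entered log2 CPM. Shares and ratios were compared by exact permutation over 20 arrangements. Coding sequences were aligned with MAFFT 7.526. Alternatives were RLE or no composition factors, no filter or 1 CPM in 3 libraries, DESeq2 1.42.0, limma-voom and limma on FPKM (limma 3.58.1, log2 with 1 or 0.1 added), a replicate block, and libraries left out. Replicate libraries differed by more than counting noise (chi-square per degree of freedom 26.7 to 167), so none was treated as a second deposit of another. The edgeR fit was also run on simulated counts. The rate of calls there is not given here, so the run says nothing on how often changes of the size seen above would be called.

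The genes and lists were chosen with earlier results of these data known. Named beside them were Muc2, from each pathway list at most 4 genes that edgeR called (the 2 highest by mean where it called none), and the 3 nearest genes in pattern for the Gsdmc sum, Nlrp6 and Gsdmd. The values of 1 gene that this rule names are not reported here.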

Additional observations from a re-analysis of the deposited data

How the results depend on the processing

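No alternative called a gene of the 10 lower. Gsdmd was the 1 gene called higher without a filter, in DESeq2, with the replicate block (adjusted p = 0.0376 in edgeR) and without wild-type 3, so that leaving out single libraries gave 0 to 1. Of the other pathway genes edgeR called 1 higher with RLE factors (0.137% of all tested genes), 11 without a filter (1.43%) and 7 with the replicate block (1.4%), DESeq2 17 (3.35%), limma on log2(FPKM + 1) at 1 FPKM in 3 libraries 1 (0.292%), and leaving out single libraries gave 0 to 9, with 9 reached without wild-type 3. The block raised the higher calls over all genes from 17 to 225 and the lower ones from 3 to 448. The cause was not tested. The family sum went to -0.012 without composition factors, a setting that moved the median of all genes to -0.20, and ranged from -0.051 to 0.44 with single libraries left out. Gsdmc2 (-0.30 to 0.0089), Gsdmc3 (-0.29 to 0.28) and Casp4 (-0.53 to 0.024) changed sign in such fits, Gsdmc4 (0.092 to 0.72), Nlrp6 (0.12 to 0.69), Gsdme (0.084 to 0.58) and Casp1 (0.43 to 1.01) did not, and without both wild-type 1 and Muc2-/- 2 Casp4 stood at 0.13 and Casp1 at 0.24, an alternative added after seeing the data. Relative to epithelial markers Casp1 was 0.11 against Epcam alone and ran from -0.12 to 0.14 with single libraries left out, Gsdmd from 0.22 to 0.63, Pycard from 0.18 to 0.39 and Gsdmc2 from -1.18 to -0.58. The shares of the 3 Gsdmc copies kept their direction on deposited FPKM and without each library. Libraries of the same number deviated together at r = 0.094, 0.28 and 0.061 for numbers 1, 2 and 3. For numbers 1 and 2 no other pairing had a higher value, while wild-type 3 was slightly nearer to Muc2-/- 1 (0.075). With 3 libraries per group these values cannot decide whether the numbers pair the samples.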
